A study of Mus musculus with 6 samples.

Results

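*Magi1* is a long gene on the minus strand of mouse chromosome 6, and its gene body held 23 of the 18333 differentially methylated regions (DMRs) listed between infant and young adult lung endothelial cells (EC). A DMR belonged to *Magi1* when its midpoint fell inside the span of the gene's curated RefSeq transcripts, chr6:93675453-94283917 in mm10. The gene was chosen by its number of DMRs that gain methylation from infant to young adult EC, so its count and its direction describe that choice and are given with no test. Of the 23 *Magi1* DMRs, 22 gained methylation and 1 lost it, whereas 54.1% of all listed DMRs gained methylation. Because the rule used this contrast, nothing is read from the difference between the shares.

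The values come from T-WGBS, whole-genome bisulfite sequencing of tagmented DNA, in which a transposase cuts the DNA and attaches the adaptors, and bisulfite then converts unmethylated cytosines. EC were sorted from the lungs of C57BL/6N mice as CD31+CD34+ cells without markers of leukocytes, erythroid cells or lymphatic EC. There were 3 samples of infants, aged 8 to 10 days, and 3 of young adults, aged 8 to 12 weeks. The labels name no treatment, and the study's methods describe female mice. The list gives 1 mean methylation per group and DMR, so no value per sample was analysed here, the coverage behind a DMR is unknown, and the spread between replicates, against which a difference would have to be judged, is not known. The cell type could not be checked against RNA markers in a list of methylation values. A sorted population was measured as a whole, so that a change in all cells and a change in the share of cells that carry a methylated copy cannot be told apart.

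MAGI1 is a scaffold protein of the membrane-associated guanylate kinase (MAGUK) family in which the order of the domains is inverted. Its guanylate kinase domain lies in the N-terminal part, ahead of the WW domains, and the protein also has PDZ domains. It sits at tight and adherens junctions, where it binds β-catenin. In EC it has been placed at cell contacts formed by VE-cadherin, where it takes part in the activation of the small GTPase RAP1, and it binds the junctional adhesion molecule ESAM. Methylation within a gene body, unlike that of a promoter, has no single relation to transcription, and no RNA was analysed here.

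The sequences of 3 *Magi1* gain DMRs are shown because they hold the largest gains (numbers 5 and 17 in the order of transcription) and the most CpGs (number 1). They were read from the plus strand of GRCm38 (mm10), from the C of the first to the G of the last CpG. Capitals mark every CpG of the reference in this span. The list does not state which of them entered the authors' means, and all CpG counts of DMRs here are counts in the reference. DMR 5 lies at chr6:94204156-94204308, DMR 17 at chr6:93856083-93856355 and DMR 1 at chr6:94281885-94282091.
DMR 5: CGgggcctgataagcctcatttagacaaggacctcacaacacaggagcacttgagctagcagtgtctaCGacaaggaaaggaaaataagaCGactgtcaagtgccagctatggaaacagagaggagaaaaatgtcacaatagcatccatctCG
DMR 17: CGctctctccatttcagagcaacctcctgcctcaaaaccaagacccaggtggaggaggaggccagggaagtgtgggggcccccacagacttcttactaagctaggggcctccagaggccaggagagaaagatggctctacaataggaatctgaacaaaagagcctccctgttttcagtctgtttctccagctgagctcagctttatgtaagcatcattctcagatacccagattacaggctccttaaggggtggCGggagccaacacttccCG
DMR 1: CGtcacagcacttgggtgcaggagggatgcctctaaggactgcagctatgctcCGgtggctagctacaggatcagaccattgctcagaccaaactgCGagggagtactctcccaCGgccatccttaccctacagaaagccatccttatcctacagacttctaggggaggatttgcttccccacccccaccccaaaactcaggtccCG
DMR 5, with 4 CpGs, had a group mean of 40.2% in infants and 75.0% in young adults, a difference of 34.8 percentage points. DMR 17, with 3 CpGs, rose from 13.9% to 44.8% (30.8 percentage points). DMR 1, with 5 CpGs, lies 1.93 kb downstream of the distal transcription start site (TSS). It rose from 6.89% to 28.7% (21.8 percentage points). CpGs are sparse in these sequences, and the stretches of other bases between them range from short to long.

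*Magi1* spans 608.465 kb and has 9 curated transcripts. The longest, NM_001286785, has 25 exons and starts at position 94283917. The other starts lie 370.227 kb further downstream, at position 93913690 and, for the noncoding transcript NR_104594, at position 93912963, both within intron 2 of the long form. On the longest transcript 16 DMRs lay in intron 1, 3 in intron 2, 1 in intron 7, 2 in intron 12 and 1 in intron 23. None had its midpoint in an exon of this transcript. Intron 1 makes up 55.8% of the gene and held 69.6% of its DMRs, or 4.71 DMRs per 100 kb, compared with 2.36 per 100 kb in intron 2 and 3.78 per 100 kb over the whole gene. CpGs themselves were about as dense in intron 1 (9.44 per kb) as in the whole gene (9.54 per kb). Short introns with 1 or 2 DMRs reach higher densities, 48.2 per 100 kb in intron 23 (the loss), 11.4 in intron 7 and 7.10 in intron 12, but rest on those 1 or 2 regions. The gain DMRs of intron 1 had a median of 36.1% in infants and 65.8% in young adults. The 3 of intron 2 had medians of 41.2% and 64.9%, over infant levels that ranged from 13.9% to 68.8%, and with 3 regions no comparison of the introns was made.

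**Figure D1:**
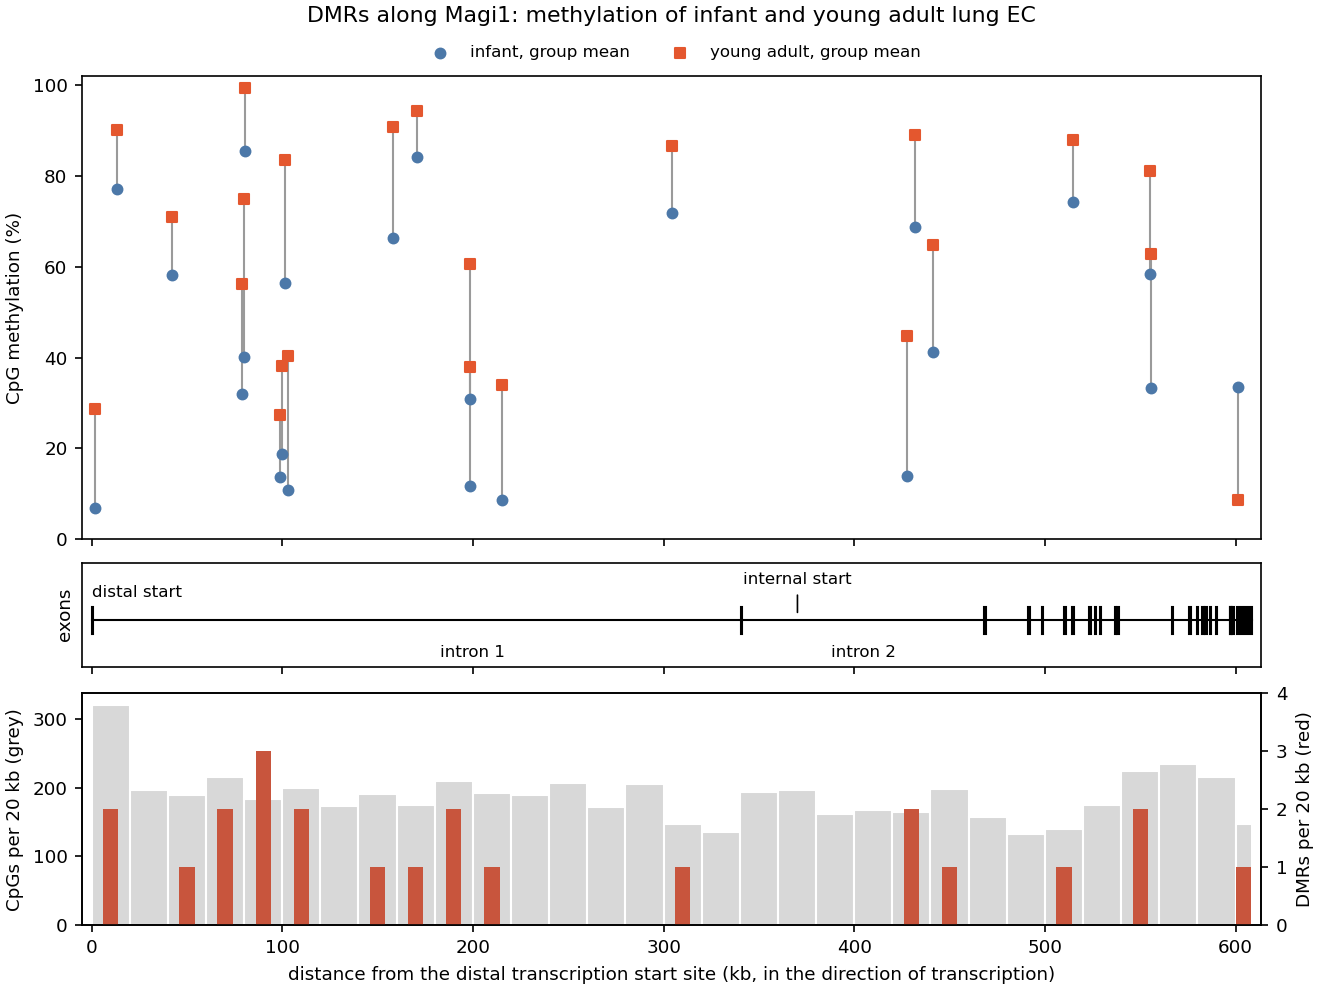
Top, group mean methylation (%) of each Magi1 DMR in infant (circles) and young adult EC (squares) against the distance from the distal TSS in kb, with a line joining the 2 means of a DMR. Middle, exons of the longest transcript (widened where too short to be seen) with the internal start; bottom, CpGs (grey) and DMRs (red) per 20 kb. The gains crowd into the first 220 kb of intron 1, and the loss is the last DMR.

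The 16 DMRs upstream of the internal starts lie only in the transcripts that begin at the distal TSS, and the other 7 lie in all 9 transcripts. No DMR lay close to the internal starts. The nearest were DMR 16, 65.5 kb upstream, and DMR 17, 56.6 kb downstream, and the 122.835 kb between these DMRs form the longest stretch of the gene between neighbours. In windows of 20 kb counted from the distal TSS, 16 of the 31 windows (the last one shorter) held no DMR. The first window had the most CpGs (321) and 2 DMRs, whereas the window from 80 to 100 kb had 184 CpGs and 3 DMRs, the most of any. The *Magi1* DMRs covered 4041 bases, 0.664% of the gene, and 76 of its 5806 CpGs (1.31%). Over the genome, 0.321% of CpGs lay in a listed DMR. Nothing is read from the difference, because *Magi1* was chosen by its number of gain DMRs. Both shares count all CpGs of the reference, also any that the authors' coverage filter left out.

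DMRs were joined to a run when the gap between neighbours was at most 10 kb. This gave 5 runs of 2 or more DMRs with 14 DMRs in all, and 9 isolated DMRs. The largest run, DMRs 7 to 10, lies 98.6 to 102.8 kb from the distal TSS and spans 4.50 kb. Its first member, DMR 7 (chr6:94185064-94185578), is the widest of the gene with 515 bases and 4 CpGs, and rose from 13.6% to 27.4%. DMR 8 (chr6:94184008-94184243) rose from 18.7% to 38.1%. DMR 9 (chr6:94182578-94182783), between regions of low methylation, stood apart with 56.5% in infants and 83.5% in young adults. The last member, DMR 10 (chr6:94181079-94181155), had 4 CpGs in 77 bases and rose from 10.9% to 40.4%, one of the 5 largest gains. The young adult levels of DMRs 7, 8 and 10 stayed below the infant level of DMR 9, which lies 1224 bases from DMR 8 and 1422 bases from DMR 10.

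A second run, DMRs 4 to 6, lies 79.0 to 80.7 kb from the distal TSS. Along with DMR 5, shown above, it holds DMR 4 (31.9% in infants and 56.3% in young adults) and DMR 6 (85.5% and 99.4%). DMR 6 has the highest level of the gene at both ages, and DMR 4 the lowest of this run. Both runs lie within *4930511A08Rik*, a noncoding RNA gene on the same strand inside intron 1 of *Magi1*, which thereby holds 7 of the gain DMRs and no loss. The methylation of these DMRs cannot be given to one gene or the other. Further downstream, DMRs 13 and 14 lie 105 bases apart, the shortest gap of the gene. DMR 13 (chr6:94085525-94085652) rose from 30.9% to 60.6%, the third largest gain, and DMR 14 from 11.8% to 38.0%. In intron 2, DMR 17 heads a run of 3, with DMR 18 at 68.8% in infants and 89.0% in young adults and DMR 19 at 41.2% and 64.9%. In intron 12, DMR 22 (chr6:93727995-93728039), whose 3 CpGs lie within 45 bases, rose from 33.2% to 62.8% and was the fourth largest gain, and DMR 21, 687 bases upstream of it, rose from 58.5% to 81.2%. All runs held gains alone, since the only loss of the gene was isolated. Levels differed from member to member.

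**Figure D2:**
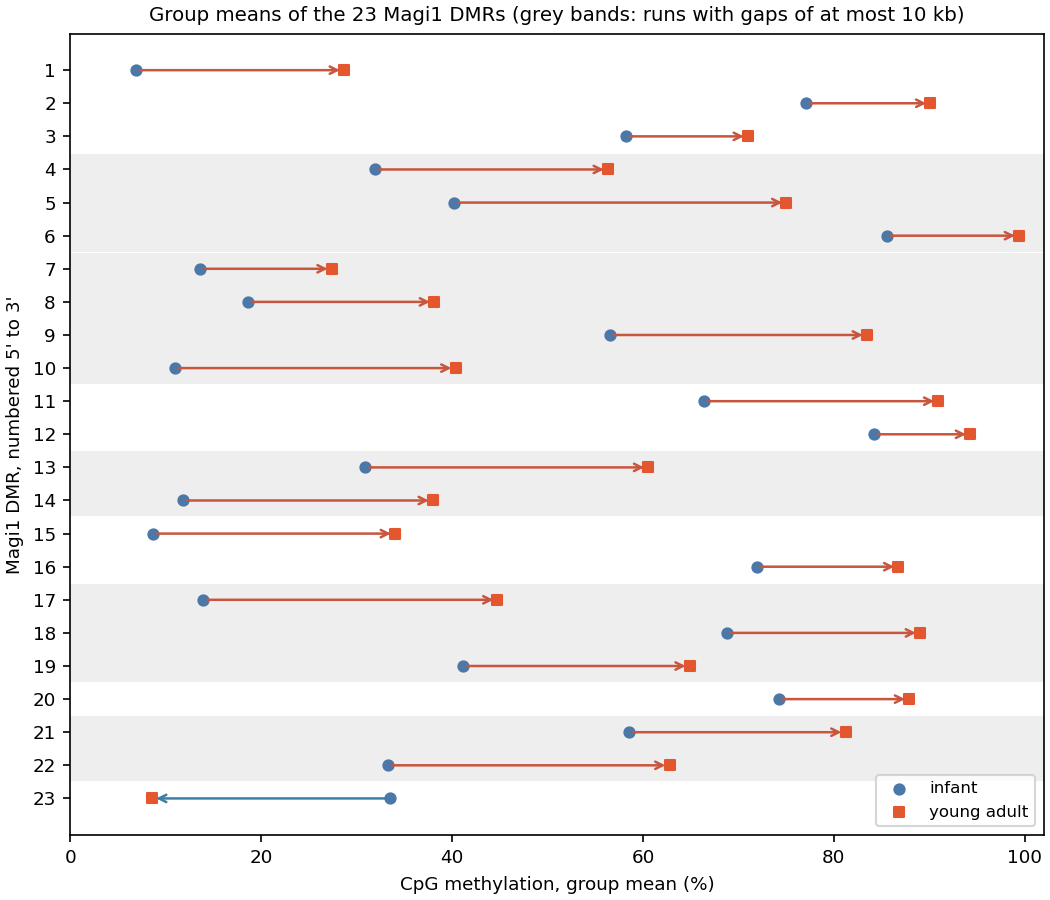
Group mean methylation (%) of the 23 Magi1 DMRs, numbered in the order of transcription, in infant (circles) and young adult EC (squares), with arrows from infant to young adult and grey bands for runs with gaps of at most 10 kb. DMRs 1 to 22 point to higher methylation, with starts between 6.89% and 85.5%, and DMR 23 to lower.

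The isolated DMRs include the smallest gains of the gene. DMR 12 (chr6:94113000-94113209) rose from 84.2% to 94.3%, a difference of 10.1 percentage points that is just inside the 10% that the authors required for a DMR. The next smallest were DMR 3 (58.2% and 71.0%, 12.8 percentage points) and DMR 2 (77.1% and 90.1%, 13.0 percentage points). Isolated DMRs were also found at low levels, with DMR 15 (chr6:94068679-94068854) at 8.67% in infants and 34.0% in young adults. At higher levels, DMR 11 rose from 66.4% to 91.0%, DMR 16 from 71.9% to 86.8% and DMR 20, in intron 7, from 74.2% to 87.9%. Of the 8 isolated gain DMRs, 5 were at 60% or above in infants, compared with 2 of the 14 in runs. The median infant level was 69.2% for the isolated gains and 32.6% for those in runs, and the median difference 14.3 and 25.3 percentage points. These medians rest on few regions of the same samples and on the gap of 10 kb. Other gaps were not tried for them, and the contrast was not tested.

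The only loss was DMR 23 (chr6:93682393-93682508), 601.468 kb from the distal TSS near the 3′ end of the gene. Its 3 CpGs had 33.5% in infants and 8.55% in young adults, and so fell by 24.9 percentage points. It lies in intron 23 of the longest transcript but overlaps the last exon of 4 shorter ones (NM_001083321, NM_001286786, NM_001286788 and NR_104594), outside the coding sequence. It was the only *Magi1* DMR that overlapped an exon of any curated transcript. Its nearest neighbour within the gene, DMR 22, lies 45.5 kb upstream and gained methylation.

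Over the 22 gain DMRs, the median methylation was 40.7% in infant EC (range 6.89 to 85.5%) and 68.0% in young adult EC (range 27.4 to 99.4%). The median difference was 23.2 percentage points (range 10.1 to 34.8). These medians pool unlike regions. The 16 gain DMRs with 3 CpGs had medians of 58.4% in infants and 76.1% in young adults, and the 6 with at least 4 CpGs had 12.3% and 37.2%. In the whole list the gain DMRs with 3 CpGs had medians of 59.7% and 80.7%, and those with at least 4 had 38.2% and 67.1%. For all 9911 listed gain DMRs together the medians were 54.8%, 78.1% and 20.4 percentage points. Of the 22, 7 (31.8%) were below 20% in infant EC, 8 (36.4%) between 20% and 60% and 7 (31.8%) at 60% or above, and for all gain DMRs the shares were 14.6%, 41.6% and 43.8%. When only gain DMRs within gene bodies were taken, 17.1% were below 20%. Of the 7 low *Magi1* DMRs, 4 were among the 6 with at least 4 CpGs (66.7%, beside 26.6% of the gene body gains with at least 4 CpGs). The other 3 were among the 16 with 3 CpGs (18.8%, beside 14.2% of the gene body gains with 3 CpGs). The higher share of low regions therefore rests on few DMRs.

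Within each of these classes of infant methylation the *Magi1* medians were close to those of the whole list. The classes are cut on the infant level and a listed gain is at least 10 percentage points. Closeness is therefore partly set in advance, and nothing is read from it. In the low class, the *Magi1* medians were 11.8% in infants and 38.0% in young adults, and those of the list 11.3% and 36.1%. In the middle class they were 40.7% and 68.0%, and in the list 41.9% and 68.0%. In the high class they were 74.2% and 90.1%, and in the list 73.7% and 90.8%. The median difference was 25.3 percentage points in *Magi1* and 24.3 in the list for the low class. It was 25.7 and 25.1 for the middle class and 13.9 and 16.2 for the high class. The 7 low DMRs (1, 7, 8, 10, 14, 15 and 17) ended between 27.4% and 44.8%, below the lowest young adult level of the middle class (56.3%), so none of them became highly methylated. The 7 high DMRs (2, 6, 11, 12, 16, 18 and 20) ended between 86.8% and 99.4%. DMRs with a higher infant level gained less (Pearson's r = -0.573, Spearman's rho = -0.548 across the 22 gain DMRs), as did all 9911 gain DMRs (r = -0.593, rho = -0.664). The points share the same 6 samples, both axes hold the infant value and methylation ends at 100%, so the coefficients are a description of the list.

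**Figure D3:**
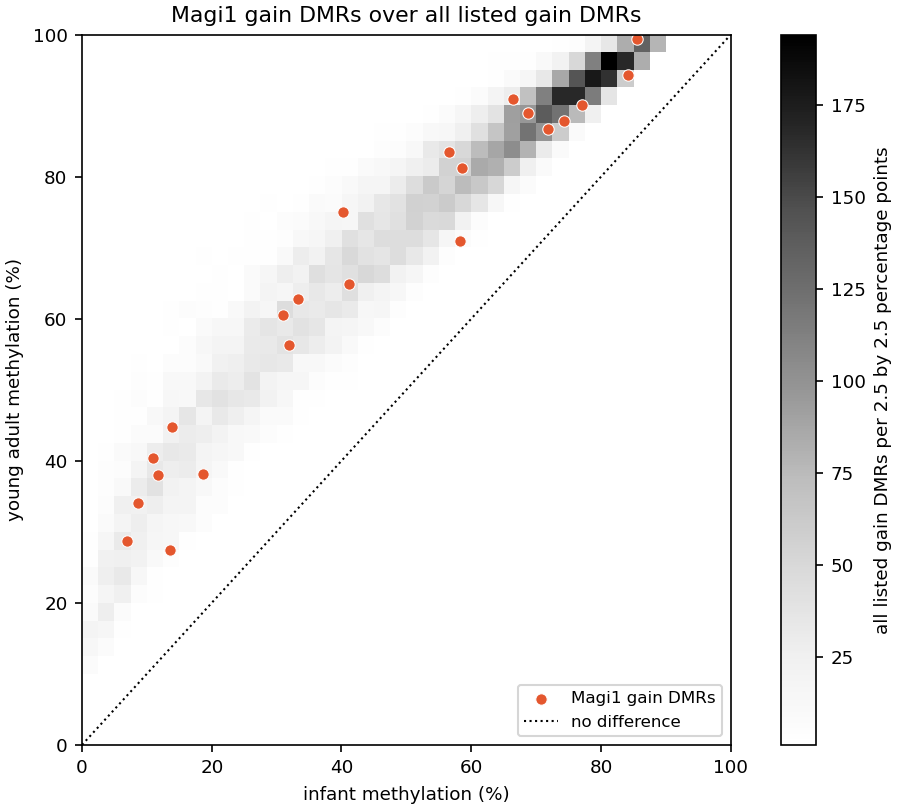
Young adult against infant methylation (%) of the 22 Magi1 gain DMRs (red) over the number of all 9911 listed gain DMRs (grey, in squares of 2.5 by 2.5 percentage points), with the dotted line at no difference. The Magi1 DMRs follow the band of all gains and are spread along its whole length, with 7 points below 20% infant methylation.

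The *Magi1* DMRs were poor in CpGs, as were the listed DMRs in general. In windows of 500 bp the median GC content was 44.8% (33.6 to 53.4%), compared with 47.4% for all DMRs. The median ratio of observed to expected CpGs was 0.265 in *Magi1* and 0.273 in all DMRs, far from that of a CpG island. Of the 23 DMRs, 17 (73.9%) had 3 CpGs, the fewest that the authors allowed, and the most was 5; in the whole list 66.5% had 3 and the most was 30. Among gain DMRs alone, 72.7% had 3 CpGs in *Magi1*, 78.5% in the whole list and 76.7% in gene bodies. The median width was 153 bases (45 to 515), and 126 in the whole list. Soft-masked repeats of the reference covered some bases in 13 of the 23 DMRs (56.5%, all DMRs 44.8%) and all bases in none.

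Short motifs were searched on both strands in windows of 200 bp centred on each DMR, as letters and not as proven binding sites. GGAAGT, a core of the ETS family of transcription factors, many of which act in EC, was found in 8 of 23 windows (34.8%), namely at DMRs 2, 4, 10, 14, 16, 17, 21 and 22, and in 14.2% of the windows of all DMRs. In windows of 300 bp it stood in the same 8 (34.8%, all DMRs 20.4%), and within the DMRs themselves in 7 (30.4%, all DMRs 11.2%), among them DMR 17, whose sequence is shown above. No test was made of this difference. AGATAA, bound by zinc finger factors such as GATA2, stood in 3 windows (13.0%, all DMRs 11.7%), and AACAAT, bound by SOX factors, also in 3 (13.0%, all DMRs 10.3%). GGAATG, bound by TEAD factors, stood in 2 (8.70%, all DMRs 11.7%), as did TGANTCA, bound by AP-1 (all DMRs 6.51%), and the E-box CAGCTG (all DMRs 12.4%). TGACCT, bound by nuclear receptors, stood in 1 (4.35%, all DMRs 13.2%). The E-box CACGTG (all DMRs 4.22%) and the forkhead motif TGTTTAC (all DMRs 4.36%) stood in none. Apart from GGAAGT, the shares of *Magi1* lay within 3 windows of those of all DMRs, and with 23 windows 1 window is 4.35%. The letters of both E-boxes and of AP-1 read the same on either strand, and no motif searched contains another.

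Around the gene, DMRs were unevenly placed. The nearest DMR outside the gene body lies 31.2 kb downstream of its 3′ end and rose from 82.6% to 97.3%. Upstream of the distal TSS, the nearest lies 411.361 kb away in *Lrig1*, which encodes a transmembrane antagonist of growth factor receptors, and rose from 62.2% to 82.5%. It was the only DMR within 1 Mb upstream. Within 1 Mb downstream there were 37 DMRs, of which 12 gained and 25 lost methylation. CpGs stood at 8.89 per kb upstream, 7.64 per kb downstream and 9.54 per kb in *Magi1*, and the part of CpG density in these counts was not tested. Of the losses, 18 lay in *Prickle2*, a planar cell polarity gene that extends beyond this distance and had 54 losses and no gain in all. *Adamts9*, which encodes a secreted metalloprotease, had 2 losses and the noncoding *9530026P05Rik* 1 gain. No DMR lay in *Slc25a26*, *Kbtbd8* or the other neighbours on either side. Within 500 kb downstream 6 DMRs gained and 2 lost methylation, and from there to 1 Mb 6 gained and 23 lost it, beside 54.1% gains in the whole list. This division was chosen after the positions had been seen.

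Of 26089 curated genes, 11.4% held at least 1 gain DMR and 8.49% at least 1 loss DMR, and *Magi1* had the most gain DMRs. *Hspg2*, which encodes the basement membrane proteoglycan perlecan, and *Rora*, which encodes a nuclear receptor, had 19 each. *Lrmda* had 17, and *Foxp1*, a forkhead transcription factor gene, and the sialyltransferase gene *St6galnac3* had 16 each. Losses accompanied these gains in *Foxp1* (8), *St6galnac3* (5), *Rora* (2) and *Lrmda* (2), and none in *Hspg2*. The order depends on length. Per 100 kb, *Magi1* had 3.62 gain DMRs and *Hspg2* 18.7, and among the 206 genes with at least 10 DMRs *Magi1* came 20th by this density. *Prkce*, the kinase gene compared as a cluster of the opposite direction, had 65 losses and no gain, 13.3 DMRs per 100 kb.

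**Figure D4:**
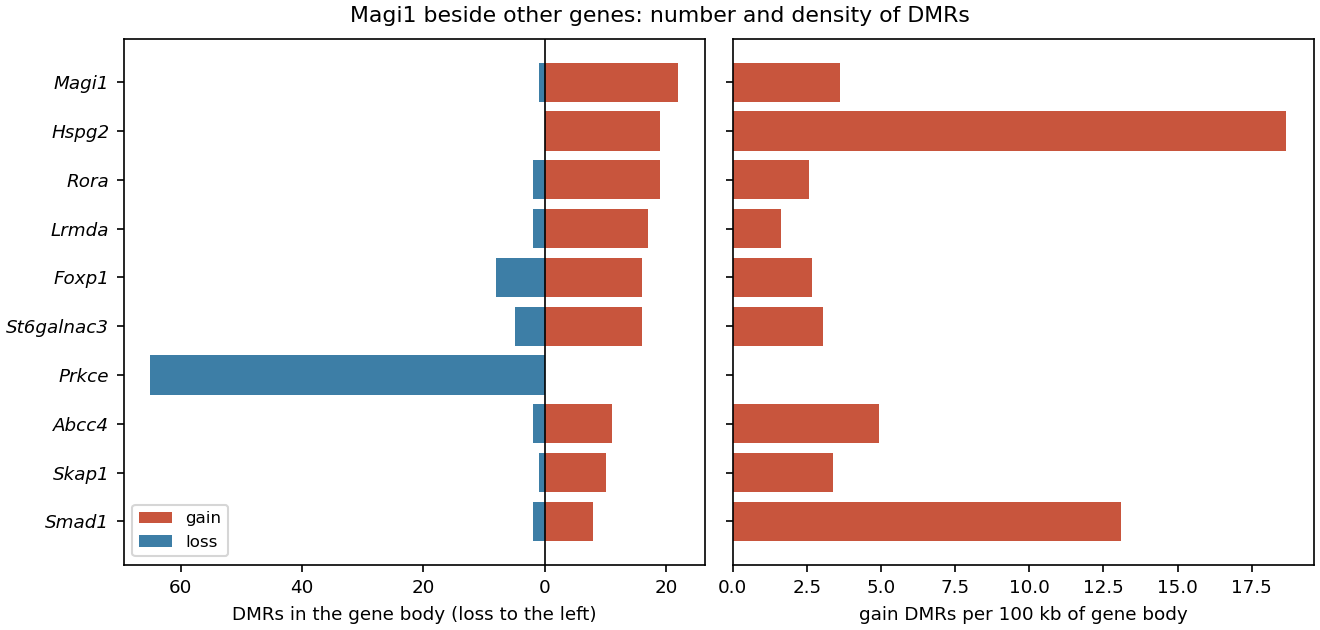
Left, number of gain (red) and loss DMRs (blue, to the left of 0) in the gene body of Magi1, of the 5 other genes with the most gain DMRs, of Prkce and of the 3 genes most like Magi1. Right, gain DMRs per 100 kb of gene body. Magi1 has the longest gain bar on the left, with 22, and a short one on the right, with 3.62 per 100 kb against 18.7 in Hspg2.

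The median levels of the gain DMRs were lower in *Magi1* than in *Rora* and *Lrmda* and higher than in *Foxp1*. The median of the gain DMRs was 40.7% in infants and 68.0% in young adults in *Magi1*, 63.1% and 84.6% in *Rora*, 56.2% and 83.6% in *Lrmda*, 35.6% and 69.3% in *Hspg2* and 11.6% and 35.5% in *Foxp1*. Gains below 20% in infant EC made up 7 of 22 in *Magi1*, 13 of 16 in *Foxp1*, 4 of 17 in *Lrmda*, 2 of 16 in *St6galnac3*, 2 of 19 in *Hspg2* and 1 of 19 in *Rora*, so *Magi1* came after *Foxp1* among these genes. The median difference varied less, with 23.2 percentage points in *Magi1*, 21.5 in *Rora*, 23.3 in *Lrmda* and 30.6 in *Hspg2*. These are medians over regions of the same samples, and none of the differences between genes was tested. Likeness to *Magi1* was measured as the sum of the distances of the median infant and young adult levels of all DMRs of a gene, over 25 genes with at least 10 DMRs of which at least 80% gained. The most alike were *Abcc4*, an efflux transporter gene (13 DMRs, medians 42.3% and 65.7%), *Skap1*, an adaptor protein gene (11 DMRs, 36.4% and 64.7%), and *Smad1*, which encodes a transducer of BMP signals (10 DMRs, 45.2% and 63.1%), compared with 40.2% and 64.9% over the 23 *Magi1* DMRs.

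A list of 46 genes held 28 gain and 96 loss DMRs. It takes in partners and relatives of MAGI1 and other junction, polarity, RAP1 and actin-linking proteins. Of the losses, 53 lay in 4 genes (*Cdh5*, *Pecam1*, *Rap1b* and *Jup*) of the junction and RAP1 lists. Of the 46 genes, 15 (32.6%) had a gain, 22 (47.8%) a loss and 15 neither, beside 11.4% and 8.49% of all genes. Genes of the list are longer, with a median of 59.6 kb against 13.5 kb for all genes, and the part of length in these shares was not tested. The gain share of the list's DMRs was 22.6%, and that of all 12175 DMRs in gene bodies 42.5%. The 28 gains had medians of 58.5% and 81.5%, and the 96 losses of 63.6% and 25.3%. Unlike *Magi1*, its paralogs *Magi2* (1478 kb long) and *Magi3* held no DMR.

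Among 13 genes of endothelial junction proteins and catenins, including the MAGI1 partners β-catenin and ESAM, there were 3 gains and 55 losses. The gain share was 5.17%, beside 42.5% of all DMRs in gene bodies. A loss was found in 8 of the 13 genes (61.5%) and a gain in 2 (15.4%), beside 8.49% and 11.4% of all genes, and the median length was 52.3 kb. *Cdh5*, which encodes VE-cadherin, and *Pecam1*, which encodes CD31, one of the markers of the sort, had 15 losses and no gain each. The median of the *Cdh5* DMRs was 55.2% in infants and 20.7% in young adults, and that of the *Pecam1* DMRs 60.5% and 18.6%. *Jup*, the plakoglobin gene, had 10 losses, *Ctnnd1*, the gene of p120-catenin, had 8, and *Ctnnb1*, *Ctnna1* and *F11r* had 2 each. *Ctnnb1* encodes β-catenin, the direct partner of MAGI1, and its DMRs had medians of 58.9% and 31.3%. The gains lay in *Jam3* (2), a junctional adhesion molecule gene, and in *Afdn* (1 gain and 1 loss), the afadin gene. *Esam*, *Jam2*, *Cldn5* and *Ocln* held no DMR.

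Among 17 other MAGUK and polarity scaffolds there were 16 gains and 12 losses, a gain share of 57.1% beside 54.1% of all listed DMRs and 42.5% of those in gene bodies. A gain was found in 7 genes (41.2%) and a loss in 6 (35.3%), beside 11.4% and 8.49% of all genes, which are shorter (median 13.5 kb against 112 kb in this list). Without *Pard3b* the scaffolds held 9 gains and 10 losses. *Pard3b* came nearest to *Magi1* in this list, with 7 gains and 2 losses in 1003 kb, and its gains had medians of 44.2% and 82.0%. *Pard3*, the gene of the polarity protein PAR3, had 3 of each. *Tjp1*, which encodes the zonula occludens protein ZO-1, had 4 losses and no gain. Single or paired gains were found in *Dlg3* (2), *Dlg2*, *Cask* and *Patj*, single losses in *Dlg5* and *Scrib*, and 1 of each in *Pard6b*. The other 7 scaffolds held no DMR.

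Of 7 genes of RAP1 signalling, 6 (85.7%) had a loss and 1 (14.3%) a gain, beside 8.49% and 11.4% of all genes. Their median length was 74.1 kb against 13.5 kb. They held 2 gains and 26 losses, a gain share of 7.14% beside 42.5% of all DMRs in gene bodies. The GTPase genes *Rap1b* and *Rap1a* had 13 and 6 losses and no gain, and the RAP1 effector gene *Rasip1* had 3 losses. *Rapgef1*, which encodes an activator of RAP1, had 2 gains and 2 losses, and *Rapgef2* and *Rapgef6* 1 loss each. *Krit1* held no DMR. Among 7 genes of angiomotins and actin linkers, whose products bind MAGI1 or tie junctions to actin, there were 7 gains and 3 losses, a gain share of 70% over 10 DMRs beside 42.5% of all DMRs in gene bodies. A gain was found in 5 of these genes (71.4%) and a loss in 2 (28.6%), beside 11.4% and 8.49% of all genes, and the median length was 41.2 kb against 13.5 kb. There were 3 gains in *Synpo*, 1 each in *Amotl1*, *Actn4* and *Net1*, 1 gain and 1 loss in *Actn1* and 2 losses in *Amotl2*. Outside *Magi1*, the 4 listed genes with at least 10 DMRs, *Cdh5*, *Pecam1*, *Rap1b* and *Jup*, held losses alone, and *Pard3b*, with 9 DMRs, held the most gains.

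**Figure D5:**
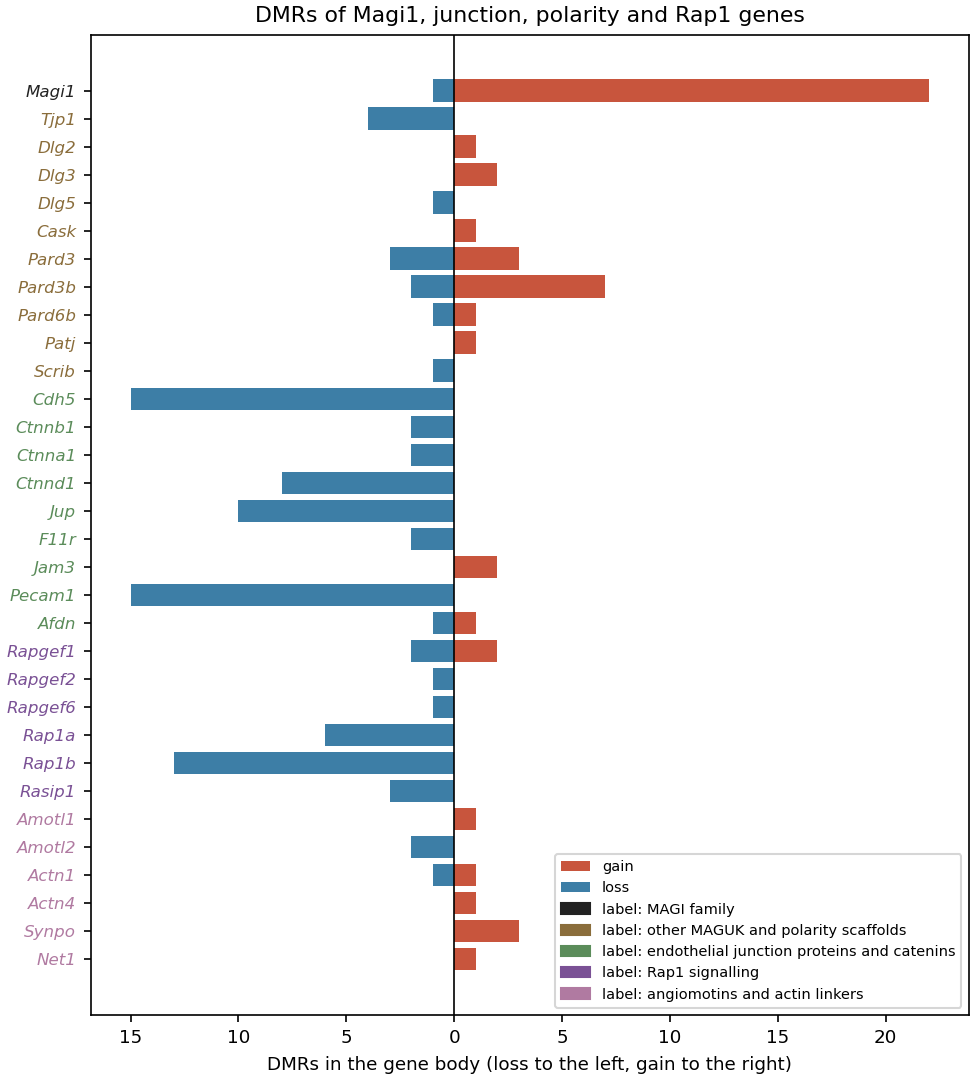
Gain DMRs (red, to the right) and loss DMRs (blue, to the left) in the gene bodies of Magi1 and of the 31 other listed genes that held a DMR, with the colour of a gene's name giving its list. Magi1 has 22 gains, the next gene Pard3b has 7, and the longest loss bars are the 15 of Cdh5 and of Pecam1.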

How the data were processed

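T-WGBS of sorted lung EC was analysed for 3 infant and 3 young adult samples. The submitters' processing notes name bcl2fastq 1.8.4, BWA 0.6.1, R 3.2.2 and mm10. The authors called DMRs with bsseq on unsmoothed data, using CpGs with 8-fold coverage or more in 2 or more of a group's 3 samples, and listed stretches of 3 or more CpGs in a row with p under 0.05 each and group means that differed by 10% or more. The deposited values are fractions, the authors' mean methylation per group, and were shown here as percent, with gain or loss as the sign of young adult minus infant. Regions were chosen by a test on the same samples, so differences are those of selected regions. Coverage per DMR is unknown and its precision could not be given. Annotation and sequence were RefSeq GRCm38 (mm10), with 45657 curated transcripts on chromosomes with DMRs. The file counts the C of the first and last CpG from 0; in 18333 of 18333 DMRs both fell on a CpG, and coordinates here count from 1. DMRs were given to gene bodies by midpoint, also to overlapping genes. No test was made: *Magi1* was selected on this contrast. Members, gene lists and motifs were chosen with earlier results of these data known. Genes named were *Magi1*, its neighbours within 1 Mb, listed genes, the 5 other genes with the most gains, the 3 most alike, *Rora*, *Lrmda* and *Prkce*. The 5 largest gains, the loss and the regions at the extremes of CpGs, width, distance and difference are given in full. Some listed genes are not reported here and are left out of the counts. Procedures were tested on simulated regions. Python 3.11.15, pandas 2.3.3, numpy 2.4.6 and matplotlib 3.10.9 were used.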

Additional observations from a re-analysis of the deposited data

How the results depend on the processing

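Alternatives to the thresholds, the merging, the weighting, the membership rule, the gap of a run and the transcript were tried. With a difference of at least 20 percentage points, 15 *Magi1* DMRs were left, 2.47 per 100 kb. With at least 4 CpGs, 6 were left (0.986 per 100 kb), all gains (100%) and all in intron 1 or 2 (100%, compared with 82.6% of the 23), with medians of 12.3% in infants and 37.2% in young adults. The DMRs with 3 CpGs alone gave gain medians of 58.4% and 76.1%, so the medians over all of them belong to neither set. On the transcripts that start at the internal sites (NM_001286788 and NR_104594), 42.9% of the 7 DMRs they span lay in intron 1 or 2. With gaps of up to 50 kb the largest run held 10 DMRs. By gain DMRs per 100 kb, *Magi1* came 20th. With at least 4 CpGs the median difference of the gains was 26.2 percentage points. Under all alternatives but that one, the gain share was 93.3 to 96.1% and the median difference 22.7 to 25.8 percentage points. The infant median of the gains was then 31.9 to 41.2% and their young adult median 60.6 to 71.0%. In windows of 300 bp, AGATAA stood in 21.7% (13.0% in 200 bp), TGACCT in 8.70% (4.35%), GGAATG in 13.0% (8.70%) and TGTTTAC in 4.35% (0%), and the GGAAGT share was 30.4 to 34.8%. The labels pair no infant with a young adult sample, so no paired analysis was made. No replicate could be left out because only group means were analysed. Depth behind each DMR is unknown, so which differences it limits was not tested.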
